A study of Mus musculus with 16 samples.

Results

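The cell cycle and DNA replication genes described here were 51 genes chosen by symbol: the D, E, A and B cyclins and their kinases, 3 transcription factors, the genes that load and run the replication machinery, and the kinases, motors and kinetochore genes of mitosis. All 51 were among the 29629 genes of the single-cell table and the 47729 genes of the tendon table, and all 51 passed the filter on low counts in both (13372 and 14602 genes tested). The cells came from 1 clone of *ScxGFP* iPSCs, made with Sendai virus vectors from fibroblasts of mice carrying a GFP transgene under *Scx* control and grown on feeder cells under 2i LIF. Mesodermal cells were induced from them with CHIR99021, a Wnt agonist, and cyclopamine, a hedgehog inhibitor, which were withdrawn before TGF-β2 was added. Mesodermal cells were taken before TGF-β2 (T0) or after treatment with it lasting 3 days (T3), 6 days (T6) or 9 days (T9). Each time point had 3 plates of 384 wells, with single Hoechst-positive, Sytox-negative cells sorted into the wells. Per the study's methods serum was lowered on the day before TGF-β2 was added, and T3 to T9 cells were freed with collagenase before trypsin. Growth factor, time in culture, time since CHIR99021 and cyclopamine were withdrawn, time in low serum and digestion therefore cannot be told apart. Bulk RNA came from Achilles tendon of 2-week-old *Scx* knockout mice (Scx_KO, n = 2) and wild type littermates (Scx_Wt, n = 2). The labels do not say that the plates of a time point came from separate cultures, so p-values measure the spread between plates, which may be technical, and the comparisons share plates.

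A cell commits to division when D cyclins with *Cdk4* or *Cdk6*, and then E cyclins with *Cdk2*, release E2F factors from the pocket proteins, and E2F then switches on the genes of DNA replication. The mitotic genes are switched on later, in G2, through CCAAT boxes and the cell cycle homology region (CHR) read by the MuvB complex with B-Myb and FoxM1. CDK inhibitors hold these kinases back, and cells of the tendon lineage divide in the embryo and young animal before tenocytes settle into a largely quiescent, matrix-producing state.

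Promoter sequence is shown first because replication and mitotic genes are known to be switched on through different short motifs. RefSeq windows of GRCm38.p6, from 250 bases before to 50 bases after the start, were found for 42 of the 51 members. The CHR (TTTGAA or TTCGAA) stood on either strand in 17 of 21 mitotic members (81.0%), 3 of 13 replication members (23.1%) and 21.7% of all 27025 genes. CCAAT was in 19 of 21 mitotic members (90.5%), 10 of 13 replication members (76.9%) and 41.1% of all genes. An E2F sequence (TTCCCGC or TTGGCGC) was in 8 of 13 replication members (61.5%), 3 of 21 mitotic members (14.3%) and 7.79% of all genes. The CHR and CCAAT together were in 17 of 21 mitotic members, against 9.65% of all genes. A gene with several starts was counted where any of its windows held the motif, and the CCAAT box and the TTGGCGC form can overlap when they lie on opposite strands. These matches are descriptions of letters in a window, and binding was not measured.

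The windows below are from members that fell and members that rose, with every CHR, CCAAT and E2F match in capitals, 5′ to 3′ on the gene's strand. *Mcm5*, a subunit of the replicative helicase, had one of the largest falls among replication members (chr8:75109259-75109558, plus strand) and holds 3 CCAAT and 2 E2F matches. *Plk1*, a mitotic kinase, fell most among mitotic members (chr7:122159185-122159484, plus strand) and holds 1 CCAAT and 1 CHR. *Ube2c*, a ubiquitin-conjugating enzyme of the anaphase-promoting complex, rose at T3 (chr2:164769679-164769978, plus strand) and holds 6 CCAAT and 1 CHR. *Nusap1*, a spindle protein, rose most at T3 among mitotic members (chr2:119618048-119618347, plus strand) and holds none of the 3 motifs in this window.
Mcm5: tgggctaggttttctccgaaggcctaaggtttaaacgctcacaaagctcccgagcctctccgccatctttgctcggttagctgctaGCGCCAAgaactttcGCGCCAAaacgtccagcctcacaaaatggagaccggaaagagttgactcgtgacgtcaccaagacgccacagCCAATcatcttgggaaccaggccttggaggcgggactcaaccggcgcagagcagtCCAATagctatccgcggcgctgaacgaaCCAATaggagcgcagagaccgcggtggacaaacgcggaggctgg
Plk1: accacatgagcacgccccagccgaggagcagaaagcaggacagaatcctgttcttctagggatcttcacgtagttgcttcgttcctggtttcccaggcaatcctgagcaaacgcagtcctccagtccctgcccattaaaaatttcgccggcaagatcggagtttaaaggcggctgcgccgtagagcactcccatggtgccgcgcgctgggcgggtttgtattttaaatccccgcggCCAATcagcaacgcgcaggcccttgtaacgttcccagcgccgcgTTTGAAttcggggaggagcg
Ube2c: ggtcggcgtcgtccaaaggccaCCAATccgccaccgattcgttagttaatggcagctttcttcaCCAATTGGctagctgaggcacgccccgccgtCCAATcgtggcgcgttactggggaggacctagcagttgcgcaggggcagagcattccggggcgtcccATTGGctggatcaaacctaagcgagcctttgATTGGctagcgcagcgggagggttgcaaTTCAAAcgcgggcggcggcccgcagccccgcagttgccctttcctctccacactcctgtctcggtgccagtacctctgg
Nusap1: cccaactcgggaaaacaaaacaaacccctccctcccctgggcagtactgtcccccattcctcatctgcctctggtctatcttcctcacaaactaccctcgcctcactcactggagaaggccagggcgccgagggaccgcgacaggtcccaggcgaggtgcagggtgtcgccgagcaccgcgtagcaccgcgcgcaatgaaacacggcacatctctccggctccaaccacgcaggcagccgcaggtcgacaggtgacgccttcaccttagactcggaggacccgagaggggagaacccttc

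Of 4608 wells, 4594 held at least 200 genes and were summed by plate, with 1921125 to 4657093 unique molecular identifiers (UMIs) a plate and all 384 barcodes shared by the 12 plates. Median UMIs per cell were 10175, 5703, 8794 and 7900.0 in time order. By the study's own mapping summary the plates fell into classes with a higher or a lower share of reads outside annotated genes. The higher class held all T0 plates, T3 plate 2, T6 plates 1 and 3 and T9 plate 3. Cells with UMIs of at least 4 of 8 pluripotency markers numbered 73, 14, 5 and 13 at T0, T3, T6 and T9, and the summed level of those markers was 371 to 780.3 UMIs per 1000000 (CPM) at T0 and 0.332 to 296 CPM at T9. The summed tenocyte markers were at 1176 to 1276 CPM at T0, where *Tnmd*, *Kera* and *Chad* were at 0, and at 20516 to 50988 CPM at T9. Levels are given in CPM of each plate's total, and fold changes from edgeR with TMM scaling, which adjusts for differences in RNA composition between samples, called at a Benjamini-Hochberg adjusted p under 0.05. Without TMM, the median log2 change of all genes was -0.21 at T3 against T0, -0.25 at T9 against T6 and -0.49 at T9 against T0, so a level in CPM can fall by that much with no fitted change.

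The summed level of the 15 replication members dropped most between T0 and T3, and that of the 25 mitotic members between T3 and T6. The summed level of the replication members was 2587 ± 41.5 CPM at T0, then 1162 ± 110.1 by T3, 879.6 ± 132 by T6 and 511 ± 91.7 by T9 (mean ± SD, n = 3). The summed level of the mitotic members was 4369.6 ± 127 CPM at T0, then 3823 ± 265 by T3, 1705 ± 475 by T6 and 1331 ± 278 by T9. With TMM factors, the replication members stood at 52.8%, 40.2% and 27.6% of their T0 level at T3, T6 and T9, and the mitotic members at 103.9%, 45.5% and 42.4%. The ratio of mitotic to replication level was 1.61 to 1.74 in the T0 plates and 3.00 to 3.57 in the T3 plates, with no overlap, then 1.57 to 2.14 at T6 and 2.16 to 2.98 at T9. Within the class of plates with the higher share, mitotic levels were 4236 to 4489 CPM at T0, 3840.0 at T3, 1915 and 2039 at T6 and 1641 at T9. Within the lower class they were 3550.1 and 4079 CPM at T3, 1162 at T6 and 1105 and 1248 at T9, so the drop between T3 and T6 was present in both classes.

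**Figure D1:**
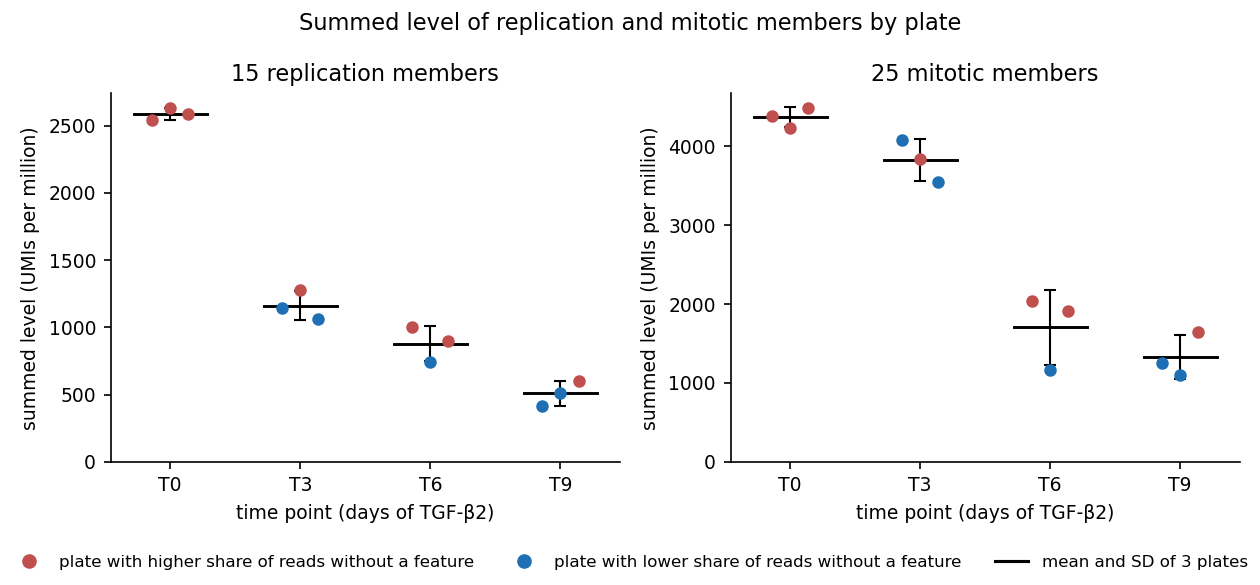
Summed levels of the 15 replication and 25 mitotic members in CPM for each plate and time point, with the mean and SD of 3 plates and the plates coloured by their share of reads outside annotated features. The replication members stand at 1064 to 1281 CPM at T3 against 2546 to 2629 at T0, while the mitotic members are at 3550.1 to 4079 CPM at T3 and at 1162 to 2039 at T6.

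At T3 against T0, 18 of 51 members were lower and 6 higher by edgeR, where 16.2% of all genes tested were lower and 17% higher. The lower members were 12 replication members, *Plk1*, *Bub1b*, *Cdk4*, *Cdk6*, *Ccnd1* and *Ccne1*. The higher members were *Ube2c*, *Nusap1*, *Spc25*, *Ckap2l*, *Depdc1a* and *Mxd3*. The median log2 change was -0.80 over the replication members and 0.002 over the mitotic members, beside 0.01 over all genes. Without TMM, *Ckap2l* and *Depdc1a* were no longer called and the other 4 remained higher, and the mitotic median was -0.24 beside -0.21 over all genes. At T6 against T3, 26 members were lower and 0 higher, where 1.63% of all genes were lower and 2.61% higher, and 22 of the 26 were mitotic members. At an unadjusted p under 0.05, edgeR put 1 member higher at this step, where 10.9% of all genes were higher at that level, and DESeq2 called 1 higher after adjustment. The median log2 change was -1.36 over the mitotic members and -0.34 over the replication members, beside 0.03 over all genes. Leaving out T3 plate 1 left 17 members lower at this step, and so did scaling without TMM, which ended the calls of *Cdc45*, *Cdk1*, *Cenpe*, *Cenpf*, *Kif11*, *Kif23*, *Mxd3*, *Pclaf* and *Plk1*.

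At T9 against T6, 2 members were lower and 0 higher, where 0.688% of all genes were lower and 0.935% higher. Both, *Mcm3* and *Pclaf*, were replication members. DESeq2 called 4 lower and 0 higher at this step, and at an unadjusted p under 0.05 edgeR put 9 lower and 2 higher, where 7.7% of all genes were lower and 8.03% higher at that level. The count was 0 when T6 plate 1, T6 plate 3, T9 plate 1 or T9 plate 2 was left out and 4 when T9 plate 3 was left out. It was 0 without TMM. With the class of plates as a covariate it was 8, adding *Ccne1*, *Mcm4*, *Mcm5*, *Mcm6*, *Pcna* and *Rrm2*. Over the whole course, T9 against T0, 43 of 51 members were lower (84.3%) and 0 higher, where 21.6% of all genes were lower and 23.6% higher. At an unadjusted p under 0.05 edgeR put 0 higher, where 27.1% of all genes were higher at that level, and DESeq2 called 43 lower and 0 higher. The 43 were all 15 replication members, 22 of 25 mitotic members and 6 of the other 11. The median log2 change was -1.35 over the members, beside -0.02 over all genes. The 8 members not called were *Ccnd2*, *Ccnd3*, *Cdk2*, *E2f1*, *Mxd3*, *Depdc1a*, *Nusap1* and *Spc25*, and without TMM the *Cdk2*, *Depdc1a*, *Nusap1* and *Spc25* genes were called lower as well. Whether the 2 sets differed from each other at any step was not tested.

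**Figure D2:**
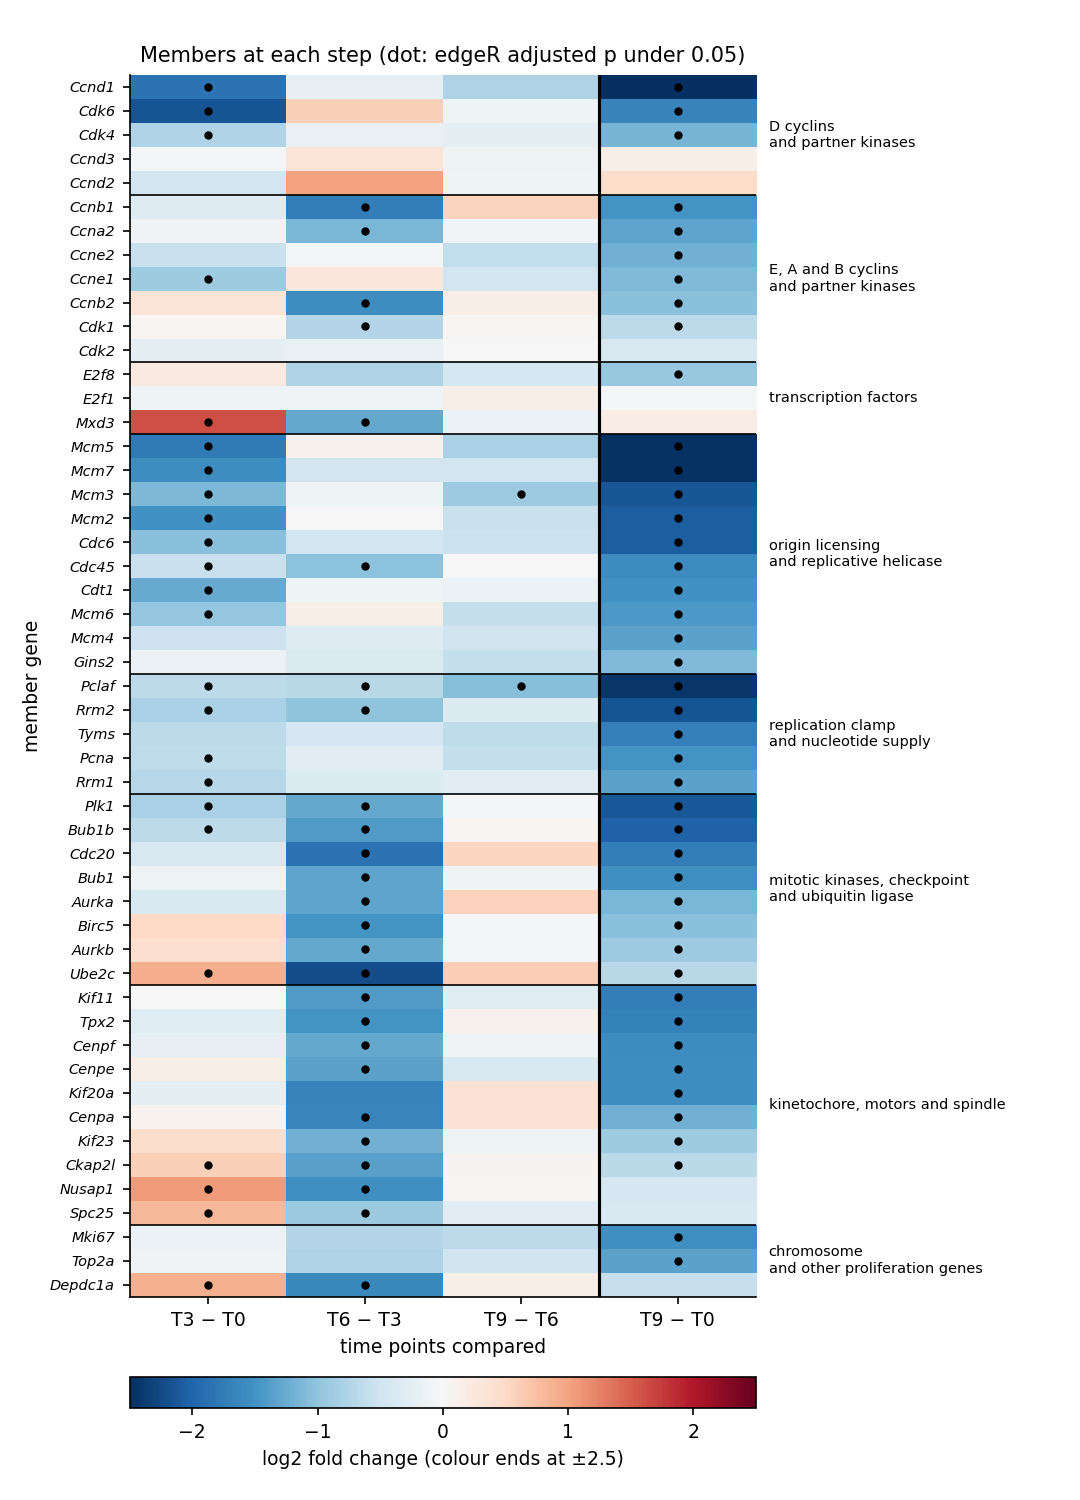
Log2 fold change of each of the 51 members (rows, grouped by role) between consecutive time points and over the whole course (columns), with a dot where the edgeR adjusted p was under 0.05 and colours ending at ±2.5. In the first step 12 of 15 replication and 7 of 25 mitotic members carry a dot, in the second step 3 and 22, in the third 2 and 0, and 43 of 51 members carry one at T9 against T0.

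The D cyclins and their kinases, which open the way into the cycle, divided into members that fell at the first step and 2 cyclins with no call at any step. *Ccnd1* was at 31.4, 42.1 and 42.2 CPM in the T0 plates, 5.73, 14.0 and 8.01 in the T3 plates, 9.47, 2.86 and 11.4 in the T6 plates and 2.44, 3.53 and 5.97 in the T9 plates. *Ccnd1*, cyclin D1, the D cyclin induced by many growth factors, fell at T3 (log2 fold change -1.85, SE 0.342, edgeR adjusted p = 0.00102), with no T3 plate as high as any T0 plate. Its change over the course was -2.83 (SE 0.369, edgeR adjusted p = 3.19e-05). *Cdk6* was at 51.3, 71.1 and 49.5 CPM in the T0 plates, 1.56, 18.4 and 12.9 in the T3 plates, 15.6, 13.0 and 20.5 in the T6 plates and 8.69, 7.07 and 24.9 in the T9 plates. *Cdk6*, a partner kinase of the D cyclins, also fell at T3 (log2 fold change -2.15, SE 0.446, edgeR adjusted p = 0.00226) and remained low, with T3 plate 1 the lowest of all 12 plates. Means of *Cdk4*, the other partner kinase, were 1344 ± 97.2, 673 ± 22.6, 586 ± 21.7 and 426 ± 7.37 CPM at T0, T3, T6 and T9. *Cdk4* fell at T3 (log2 fold change -0.76, SE 0.197, edgeR adjusted p = 0.00935), and over the course by 1.15 on the log2 scale (edgeR adjusted p = 0.000328).

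*Ccnd2* was at 241, 233 and 253 CPM in the T0 plates, 92.7, 237 and 139 in the T3 plates, 386, 167 and 382 in the T6 plates and 174, 182 and 391 in the T9 plates. *Ccnd2*, cyclin D2, did not pass the test at any step, with values of 1.01 (SE 0.272, edgeR adjusted p = 0.0514) at T6 against T3 and 0.46 (SE 0.268, edgeR adjusted p = 0.177) at T9 against T0. Its plates separated by class, the 3 plates of the higher class after T3 standing at 382 to 391 CPM and the 3 of the lower class at 167 to 182 CPM. Within each class the level was higher at T6 than at T3, at 386 and 382 CPM against 237 CPM in the higher class and at 167 CPM against 92.7 and 139 CPM in the lower. With the class as a covariate edgeR called *Ccnd2* higher at T6 against T3 (log2 fold change 0.77, SE 0.131, adjusted p = 0.000906) and at T9 against T0 (0.89, SE 0.141, adjusted p = 4.94e-05), and DESeq2 without the covariate called it higher at T6 against T3. Every T0 plate was in the higher class, and the part of the class in this result was not tested. *Ccnd3*, cyclin D3, was at means of 15.3 ± 3.10, 12.8 ± 3.63, 15.7 ± 3.35 and 12.3 ± 4.75 CPM, and its log2 change over the course was 0.14 (SE 0.276, edgeR adjusted p = 0.697).

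**Figure D3:**
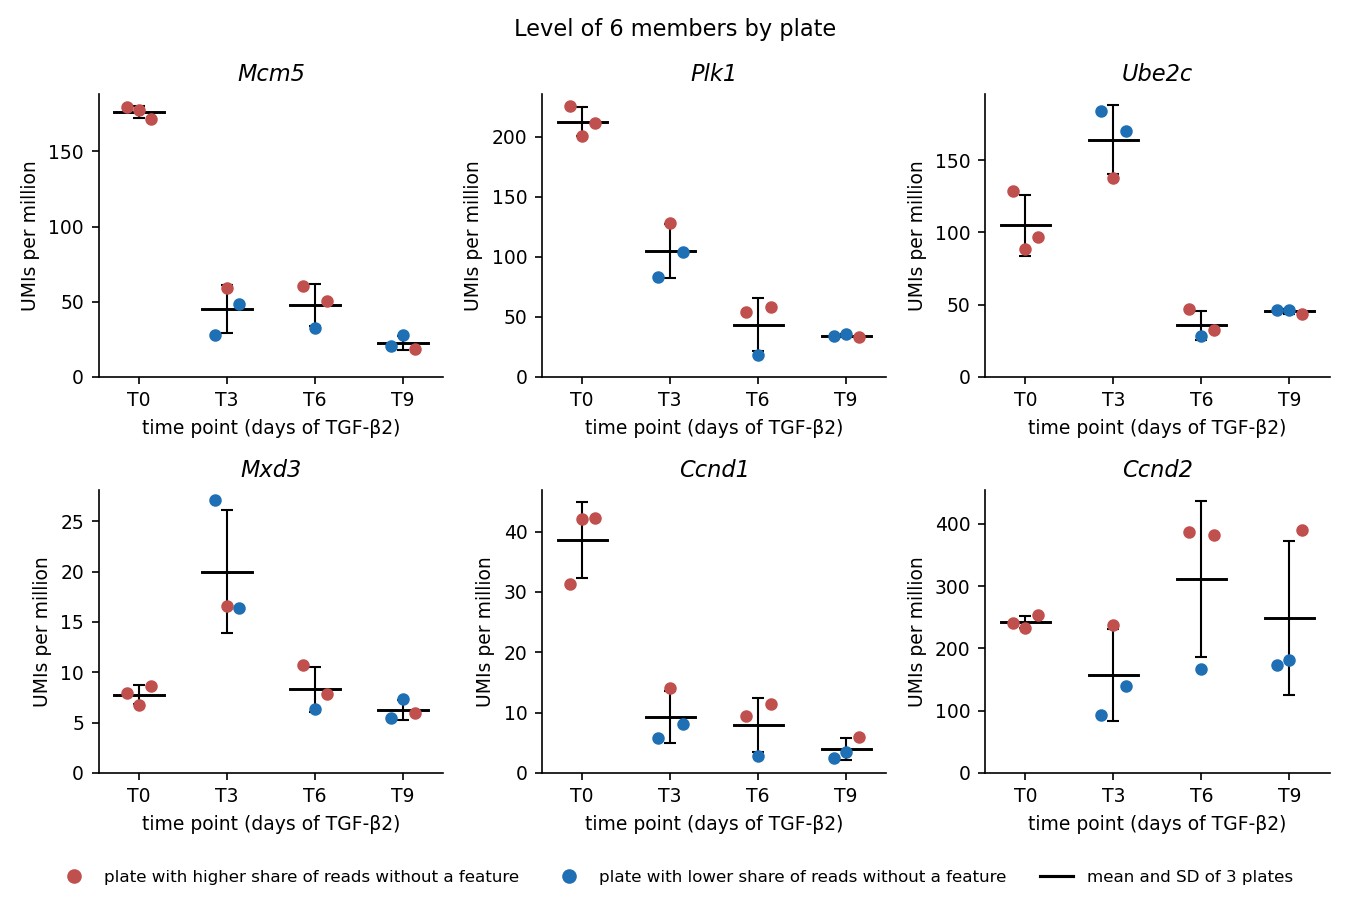
Level of *Mcm5*, *Plk1*, *Ube2c*, *Mxd3*, *Ccnd1* and *Ccnd2* in CPM in each of 12 plates, with the mean and SD of 3 plates per time point and plates coloured by their share of reads outside annotated features. *Mcm5* and *Ccnd1* drop between T0 and T3, *Ube2c* and *Mxd3* stand highest at T3, and the *Ccnd2* plates separate by colour from T3 on.

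Of the E, A and B cyclins with *Cdk1* and *Cdk2*, *Ccne1* fell at the first step and the A and B cyclins with *Cdk1* at the second. *Ccne1*, cyclin E1, the partner of *Cdk2* at the start of S phase, was at means of 136 ± 8.4, 63.1 ± 10.4, 74.4 ± 7.65 and 44.5 ± 3.88 CPM and fell at T3 (log2 fold change -0.88, SE 0.168, edgeR adjusted p = 0.00121). *Ccne2* was at 18.0, 23.2 and 21.3 CPM in the T0 plates, 14.6, 7.0 and 13.9 in the T3 plates, 11.8, 13.7 and 9.04 in the T6 plates and 5.43, 6.42 and 7.63 in the T9 plates. *Ccne2*, cyclin E2, passed the test over the course only, at -1.20 (SE 0.358, edgeR adjusted p = 0.0141). *Ccnb1* was at 152, 118 and 154 CPM in the T0 plates, 111, 80.7 and 90.9 in the T3 plates, 42.2, 15.9 and 30.2 in the T6 plates and 44.8, 34.7 and 22.9 in the T9 plates. *Ccnb1*, cyclin B1, which drives entry into mitosis with *Cdk1*, fell at T6 against T3 (log2 fold change -1.72, SE 0.339, edgeR adjusted p = 0.0101), the T6 plates all lying under the T3 plates. *Ccna2* was at 172, 181 and 171 CPM in the T0 plates, 154, 141 and 121 in the T3 plates, 73.2, 51.9 and 62.8 in the T6 plates and 44.8, 50.7 and 53.7 in the T9 plates. *Ccna2*, cyclin A2, which acts in S phase and G2, was lower at T6 against T3 (log2 fold change -1.15, SE 0.178, edgeR adjusted p = 0.00232), again without overlap of plates. *Ccnb2* and *Cdk1* fell at the same step, with log2 changes of -1.55 and -0.72, and *Cdk2* was not called at any step. At T3 against T0 none of *Ccna2*, *Ccnb1*, *Ccnb2* and *Cdk1* passed the test, their log2 values lying between -0.32 and 0.35.

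The 3 transcription factors did not share a course. *Mxd3* was at 7.94, 6.72 and 8.61 CPM in the T0 plates, 27.1, 16.6 and 16.4 in the T3 plates, 10.7, 6.36 and 7.85 in the T6 plates and 5.43, 7.39 and 5.97 in the T9 plates. *Mxd3*, a partner of Max that competes with Myc for E-box sites, rose at T3 (log2 fold change 1.61, SE 0.323, edgeR adjusted p = 0.00182) and fell back at T6 (log2 fold change -1.27, SE 0.324, edgeR adjusted p = 0.0397), with every T3 plate above every other plate. The rise was the largest of any member at that step, and its T9 level was 0.19 log2 units from T0 (edgeR adjusted p = 0.669). *E2f8* was at 18.0, 18.5 and 17.8 CPM in the T0 plates, 17.7, 18.1 and 18.5 in the T3 plates, 13.8, 10.2 and 8.09 in the T6 plates and 9.23, 2.57 and 7.96 in the T9 plates. *E2f8*, an atypical E2F that represses E2F targets late in S phase, was lower at T9 against T0 (log2 fold change -0.95, SE 0.353, edgeR adjusted p = 0.0403), and its T0 and T3 plates overlapped. *E2f1*, an activating E2F, was at means of 26.3 ± 1.82, 20.9 ± 5.55, 19.5 ± 5.19 and 18.3 ± 3.89 CPM, and its fitted change over the course was -0.05 (SE 0.193, edgeR adjusted p = 0.851).

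Among the 10 genes of origin licensing and the replicative helicase, 8 were called lower at T3, all but *Mcm4* and *Gins2*, and all 10 were called lower at T9 against T0. Of all genes tested, 16.2% were lower at T3 against T0 and 21.6% at T9 against T0. *Mcm5* was at 179.7, 178 and 172 CPM in the T0 plates, 27.6, 59.0 and 48.4 in the T3 plates, 60.7, 32.8 and 50.2 in the T6 plates and 20.6, 27.6 and 18.6 in the T9 plates. *Mcm5* fell at T3 (log2 fold change -1.76, SE 0.239, edgeR adjusted p = 8.7e-05), did not pass the test at T6 against T3 (0.10, SE 0.240, edgeR adjusted p = 0.868) and changed by -2.46 over the course (edgeR adjusted p = 3.01e-06). *Mcm7* was at 234, 231 and 226 CPM in the T0 plates, 60.9, 83.3 and 58.5 in the T3 plates, 58.9, 38.8 and 47.8 in the T6 plates and 25.8, 33.4 and 29.2 in the T9 plates. *Mcm7*, another subunit of the MCM ring, changed by -1.55 at T3 (SE 0.172, edgeR adjusted p = 1.45e-05) and by -2.46 over the course (SE 0.179, edgeR adjusted p = 1.23e-07). *Mcm3* was at 154, 156 and 158 CPM in the T0 plates, 44.2, 83.6 and 58.9 in the T3 plates, 71.4, 41.0 and 57.6 in the T6 plates and 17.9, 23.4 and 36.5 in the T9 plates. *Mcm3*, also of the ring, fell at T3 (log2 fold change -1.12, SE 0.182, edgeR adjusted p = 0.000376) and again at T9 against T6 (log2 fold change -0.91, SE 0.19, edgeR adjusted p = 0.0312). In all 3 genes each T3 plate lay below each T0 plate. *Cdt1* and *Cdc6*, which load the ring onto origins, fell at T3, with log2 changes of -1.26 and -1.04. *Cdc45*, which activates the ring together with the GINS complex, changed by -0.56 at T3 (edgeR adjusted p = 0.0447) and by -1.02 at T6 (edgeR adjusted p = 0.0129). *Mcm2*, *Mcm4* and *Mcm6*, the other ring subunits measured, had log2 changes over the course of -2.07, -1.34 and -1.43. *Mcm4* was at 158, 186 and 185 CPM in the T0 plates and 125, 106 and 83.3 in the T3 plates. It was called lower at T3 by edgeR with the plate class as a covariate (adjusted p = 0.00271) and without TMM (adjusted p = 0.0107).

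The 5 genes of the replication clamp and nucleotide supply were all called lower at T9 against T0, where 21.6% of all genes were lower. At T3 against T0, 4 of them were called lower, where 16.2% of all genes were. *Pclaf* was at 277, 286 and 289.5 CPM in the T0 plates, 131, 201 and 134 in the T3 plates, 109, 77.6 and 93.5 in the T6 plates and 26.3, 29.9 and 60.7 in the T9 plates. *Pclaf*, a factor that binds the PCNA clamp, was the one member called lower at each of the 3 consecutive steps. Its log2 changes were -0.66 at T3 (edgeR adjusted p = 0.0133), -0.70 at T6 (edgeR adjusted p = 0.0471) and -1.07 at T9 (edgeR adjusted p = 0.0146). Other members, such as *Rrm2* and *Mcm7*, also had negative log2 values at each step without a call at each. *Rrm2* was at 401, 446 and 444 CPM in the T0 plates, 207, 194 and 222 in the T3 plates, 105, 108 and 91.6 in the T6 plates and 68.2, 73.5 and 61.0 in the T9 plates. *Rrm2*, the S phase subunit of ribonucleotide reductase, fell at T3 (log2 fold change -0.80, SE 0.227, edgeR adjusted p = 0.015) and at T6 (log2 fold change -1.01, SE 0.231, edgeR adjusted p = 0.0219). *Tyms* was at 70.4, 55.8 and 51.7 CPM in the T0 plates, 36.4, 31.0 and 28.2 in the T3 plates, 27.1, 24.8 and 18.1 in the T6 plates and 8.42, 17.3 and 12.9 in the T9 plates. *Tyms*, thymidylate synthase, passed the test over the course only (log2 fold change -1.71, SE 0.289, edgeR adjusted p = 0.00029), with each T3 plate below each T0 plate. With the plate class as a covariate and without TMM, edgeR called it lower at T3 as well (adjusted p = 0.00474 and 0.0221). *Pcna*, the clamp itself, and *Rrm1*, the large reductase subunit, fell at T3, with log2 changes of -0.63 and -0.71, and over the course, with -1.5 and -1.33. *Pcna* and *Tyms* have named pseudogenes that can take some of their reads.

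All 8 mitotic kinases, checkpoint and ubiquitin ligase genes fell between T3 and T6, where 1.63% of all genes were called lower. *Plk1* was at 226, 201 and 211 CPM in the T0 plates, 82.8, 128 and 104 in the T3 plates, 53.7, 18.5 and 58.3 in the T6 plates and 33.7, 36.0 and 33.2 in the T9 plates. *Plk1* fell at T3 (log2 fold change -0.80, SE 0.249, edgeR adjusted p = 0.024) and again at T6 (log2 fold change -1.29, SE 0.257, edgeR adjusted p = 0.011). *Bub1b* was at 122, 117 and 129 CPM in the T0 plates, 73.4, 66.0 and 59.6 in the T3 plates, 32.5, 15.9 and 26.6 in the T6 plates and 22.8, 18.6 and 22.6 in the T9 plates. *Bub1b*, BubR1 of the spindle checkpoint, behaved likewise, with -0.65 (SE 0.202, edgeR adjusted p = 0.025) at T3 and -1.42 (SE 0.213, edgeR adjusted p = 0.00206) at T6. Both were lower than T0 in every T3 plate. *Cdc20* was at 55.0, 36.4 and 36.1 CPM in the T0 plates, 21.9, 34.6 and 26.1 in the T3 plates, 9.47, 7.0 and 5.95 in the T6 plates and 10.3, 7.39 and 9.29 in the T9 plates. *Cdc20*, which activates the anaphase-promoting complex, fell at T6 against T3 (log2 fold change -1.85, SE 0.262, edgeR adjusted p = 0.00147). *Ube2c* was at 129, 88.7 and 96.9 CPM in the T0 plates, 184, 138 and 170.4 in the T3 plates, 47.1, 28 and 32.1 in the T6 plates and 46.4, 46.2 and 43.4 in the T9 plates. *Ube2c*, the enzyme that works with the same complex, moved against *Plk1* at the first step: it rose at T3 (log2 fold change 0.91, SE 0.236, edgeR adjusted p = 0.00903) and then made the largest fall of any member at T6 (log2 fold change -2.23, SE 0.249, edgeR adjusted p = 0.000351). Every T3 plate of *Ube2c* lay above every T0 plate, the nearest being T3 plate 2 at 138 CPM and T0 plate 1 at 129 CPM. *Aurka* and *Aurkb*, the Aurora kinases, *Bub1* and *Birc5*, survivin, fell at T6, with log2 changes between -1.5 and -1.27, after values between -0.39 and 0.49 at T3 that did not pass the test.

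Of the 10 kinetochore, motor and spindle genes, 3 were higher and 0 lower at T3 against T0, where 17% of all genes were higher and 16.2% lower. At T6 against T3, 9 were lower, where 1.63% of all genes were. *Nusap1* was at 67.4, 52.8 and 67.0 CPM in the T0 plates, 119.7, 96.5 and 112 in the T3 plates, 41.0, 32.1 and 41.4 in the T6 plates and 30.7, 35.3 and 31.8 in the T9 plates. *Nusap1* rose at T3 (log2 fold change 1.07, SE 0.208, edgeR adjusted p = 0.00149) and fell at T6 (log2 fold change -1.53, SE 0.213, edgeR adjusted p = 0.00133), leaving T9 at -0.43 from T0 (edgeR adjusted p = 0.115). *Spc25* was at 117, 122 and 129 CPM in the T0 plates, 213, 148 and 182 in the T3 plates, 105, 82.4 and 103 in the T6 plates and 64.9, 61.7 and 73.6 in the T9 plates. *Spc25*, a subunit of the Ndc80 kinetochore complex, rose at T3 (log2 fold change 0.82, SE 0.208, edgeR adjusted p = 0.008) and fell at T6 (log2 fold change -0.92, SE 0.209, edgeR adjusted p = 0.0208). *Ckap2l*, a spindle protein, was at means of 43.9 ± 4.73, 56.8 ± 6.40, 22.1 ± 4.25 and 20.3 ± 10.4 CPM, with a log2 change at T3 of 0.60 (SE 0.213, edgeR adjusted p = 0.0423). In *Nusap1*, *Spc25* and *Ckap2l* no T3 plate was as low as any T0 plate. *Kif11* was at 72.1, 85.2 and 97.4 CPM in the T0 plates, 81.2, 72.2 and 63.1 in the T3 plates, 35.6, 13.0 and 34.0 in the T6 plates and 20.1, 10.6 and 25.2 in the T9 plates. *Kif11*, the motor that pushes spindle poles apart, was at 0.002 log2 units at T3 (edgeR adjusted p = 0.996) and fell at T6 (log2 fold change -1.42, SE 0.292, edgeR adjusted p = 0.0127). *Tpx2* was at 391, 361 and 405 CPM in the T0 plates, 267, 273 and 259 in the T3 plates, 117, 60.8 and 109 in the T6 plates and 86.1, 74.5 and 96.2 in the T9 plates. *Tpx2*, which targets Aurora A to the spindle, fell at T6 (log2 fold change -1.5, SE 0.187, edgeR adjusted p = 0.000684), and T6 plate 2 was the lowest plate of the course. *Cenpf*, a large kinetochore protein, was at means of 170.1 ± 8.53, 127 ± 25.2, 53 ± 28.5 and 42.4 ± 22.9 CPM and fell at T6 (log2 fold change -1.28, SE 0.308, edgeR adjusted p = 0.03). *Kif20a*, a motor of cytokinesis, was the member of this group not called at T6 against T3 (-1.67, SE 0.585, edgeR adjusted p = 0.136).

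The 3 remaining members were *Mki67*, which coats mitotic chromosomes and marks cycling cells, *Top2a*, the topoisomerase that untangles sister chromatids, and *Depdc1a*. *Mki67* was at 211, 201 and 229 CPM in the T0 plates, 147, 202 and 146 in the T3 plates, 114, 65.9 and 117 in the T6 plates and 36.7, 34.4 and 95.8 in the T9 plates. *Mki67* fell over the course (log2 fold change -1.54, SE 0.239, edgeR adjusted p = 0.000147), with no single step called and T9 plate 3 the highest of its time point. *Top2a* was at 867, 911 and 960.3 CPM in the T0 plates, 779, 764 and 638 in the T3 plates, 523, 246 and 545 in the T6 plates and 227, 166 and 404 in the T9 plates. *Top2a* took the same course (log2 fold change -1.35, SE 0.25, edgeR adjusted p = 0.000597), and in both genes the plate of the lower class at T6 and those at T9 lay below the others of their time point. With the class of plates as a covariate both were called lower at T6 against T3, with log2 changes of -0.91 and -0.93 (edgeR adjusted p = 0.00113 and 0.00563). *Depdc1a* was at 18.9, 14.4 and 18.0 CPM in the T0 plates, 31.2, 21.4 and 27.2 in the T3 plates, 8.70, 10.5 and 6.90 in the T6 plates and 8.15, 6.74 and 9.62 in the T9 plates. *Depdc1a* rose at T3 (log2 fold change 0.89, SE 0.288, edgeR adjusted p = 0.0293) and fell at T6 (log2 fold change -1.60, SE 0.306, edgeR adjusted p = 0.00859), and its rise was not called with that covariate (0.44, edgeR adjusted p = 0.197).

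Some of these calls were lost when 1 plate was left out. At T3 against T0, *Cdc45* was not called when any 1 of the 6 plates was left out (edgeR adjusted p 0.0585 to 0.161) and was not called in 6 of 9 other settings, among them thinned cells and the plate class. *Plk1*, *Bub1b*, *Ckap2l* and *Depdc1a* were each lost with 5 of the 6 plates left out in turn, with the highest adjusted p at 0.0770, 0.0936, 0.155 and 0.123. *Pcna*, *Rrm2*, *Pclaf* and *Rrm1* were lost with 4, 3, 2 and 1 of them, at up to 0.0786. At T6 against T3, *Pclaf* was lost with each of the 6 plates left out (0.0603 to 0.159), *Mxd3* with 5 (up to 0.179), and *Cdk1*, *Cenpf*, *Rrm2* and *Spc25* with 4 each (up to 0.117). *Ccnb1*, *Cenpe* and *Kif11* were lost without T3 plate 1 alone, at 0.0504, 0.0511 and 0.0624. At T9 against T0, *E2f8* was lost with 5 (up to 0.138), *Ckap2l*, *Kif20a* and *Ube2c* with 3 each (up to 0.127), and *Ccne2* without T0 plate 2 (0.0501). At T9 against T6, *Mcm3* and *Pclaf* were each lost with 4 of the 6 plates, at up to 0.179 and 0.0924. The direction was kept in every one of these refits.

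Per cell, the share with mitotic transcripts and the share with replication transcripts were counted after each cell was thinned to 3000 UMIs, which left 4301 cells (1071, 1038, 1081 and 1111 at T0, T3, T6 and T9) and took out 76, 113, 68 and 36 shallower cells. Cells with UMIs of at least 3 mitotic members made up 71.7 ± 1.59% at T0, then 44.2 ± 3.23% by T3, 20.0 ± 5.10% by T6 and 12.7 ± 0.548% by T9 (mean ± SD, n = 3 plates). Without thinning these shares were 88.8%, 55.9%, 46.1% and 26.0%. After thinning, the T3 plates stood at 40.8% to 47.2% and the T0 plates at 69.9% to 72.7%, without overlap. The share of cells with mitotic members thus fell at the first step as well as the second. Their summed level was 4369.6 ± 127 CPM at T0 and 3823 ± 265 CPM at T3, so share and summed level differed at that step. The reason was not tested. The share with at least 3 replication members was 79.5 ± 2.29% at T0, then 30.8 ± 4.36% by T3, 23.5 ± 5.64% by T6 and 10.6 ± 1.53% by T9. Cells with mitotic members alone were 7.18% to 11.5% of the T0 plates and 20.1% to 26.7% of the T3 plates, without overlap, and 5.87% to 8.91% of the T6 plates. Cells with neither set were 9.52% to 11.6% of the T0 plates and 81.0% to 83.1% of the T9 plates. No test was made on these shares, and no class of cells here is known to lack these transcripts, so free RNA was not assessed. Before thinning, cells with mitotic members held more UMIs than the others, at medians of 11488 against 8613 at T0 and 10762 against 7794.5 at T9.

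**Figure D4:**
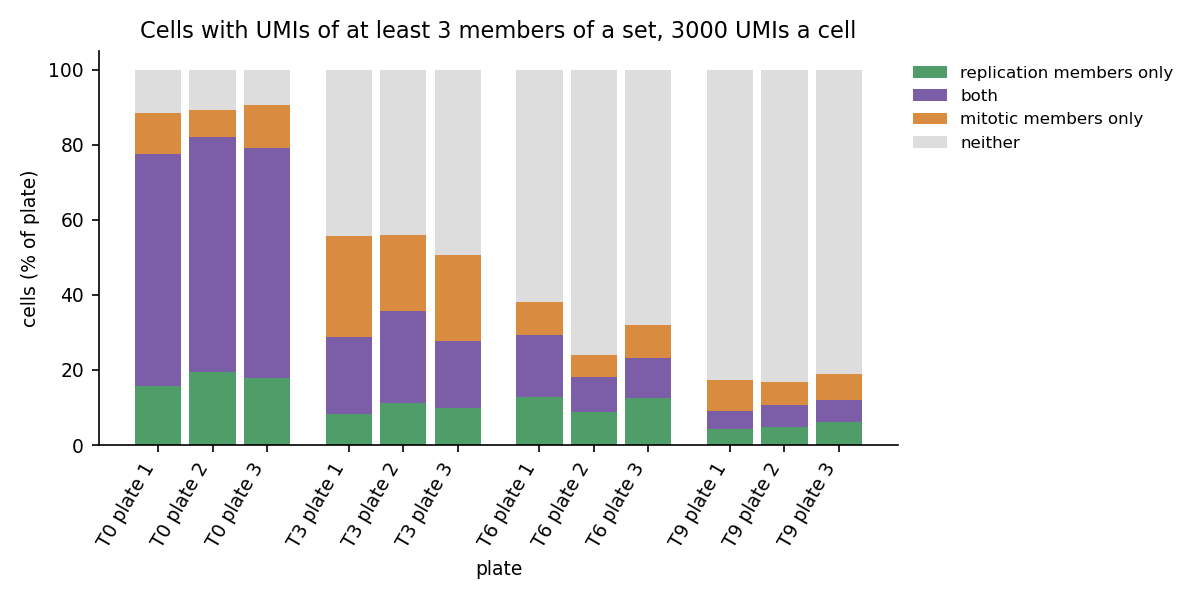
Share of the cells of each plate, in percent and after thinning to 3000 UMIs a cell, with UMIs of at least 3 of the 15 replication members, of the 25 mitotic members, of both or of neither. Cells with mitotic members alone are 20.1% to 26.7% of the T3 plates and at most 11.5% of the T0 plates, and cells with neither set make up at least 81.0% of each T9 plate.

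For single members the share of thinned cells with a UMI was counted as well. *Mcm5* was seen in 36.1 ± 1.85% of cells at T0, then 9.40 ± 3.31% by T3, 9.70 ± 3.22% by T6 and 4.14 ± 1.31% by T9. *Plk1* was seen in 32.5 ± 0.735%, 13.7 ± 3.26%, 5.31 ± 1.86% and 4.59 ± 0.0804%. *Ube2c* was seen in 17.9 ± 2.21%, 20.3 ± 1.96%, 6.60 ± 1.30% and 6.73 ± 1.59%, and its T0 and T3 shares differed by no more than their SDs together. *Mki67* was seen in 32.6 ± 4.17%, 19.5 ± 2.42%, 10.2 ± 2.35% and 6.5 ± 2.00% of cells. Cells with at least 3 mitotic members were also read for *Scx*, the tendon transcription factor. At T3, *Scx* was seen in 63.9 ± 5.45% of those cells and 76.5 ± 3.67% of the other cells, lower in 3 of 3 plates. At T6 it was seen in 64.4 ± 2.34% of the cells with at least 3 mitotic members and 60.4 ± 1.94% of the others, lower in 0 of 3 plates. At T9 it was seen in 27.0 ± 3.08% and 23.6 ± 0.440%, lower in 1 of 3. These cells are defined by transcripts alone and need not be in mitosis. *Ccnd2* had a lower share in the cells with at least 3 mitotic members in 3 of 3 plates at T0, T3, T6 and T9, standing at 40.9 ± 0.832% against 52.6 ± 3.71% at T0. *Cdkn1a*, a CDK inhibitor, was lower in those cells in 3 of 3 plates at T0, 1 of 3 at T3 and at T6, and 0 of 3 at T9. Its shares were 35.2 ± 5.08% against 48.7 ± 9.36% at T0 and 77.1 ± 9.05% against 75.1 ± 9.09% at T9.

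Genes around the members in the pathway were read from lists. Of all genes tested, 17% were higher and 16.2% lower at T3 against T0, and 23.6% were higher and 21.6% lower at T9 against T0. Of the 7 CDK inhibitors, 4 were higher at T3 against T0, 6 at T9 against T0 and 0 lower. At T6 against T3 and T9 against T6, 0 passed the test by edgeR, where 2.61% and 0.935% of all genes were higher and 1.63% and 0.688% lower. DESeq2 called 0 and 1 after adjustment, the 1 being *Cdkn2b*, higher. At an unadjusted p under 0.05 edgeR put 2 and 4 past the threshold in either direction, where 10.9% and 8.03% of all genes were higher at that level. *Cdkn2b*, p15, an inhibitor of *Cdk4* and *Cdk6* that TGF-β is known to induce, was at means of 14.1 ± 9.18, 26.1 ± 5.95, 40.8 ± 5.74 and 84.2 ± 15.3 CPM at T0, T3, T6 and T9, with a log2 change over the course of 3.08 (SE 0.361, edgeR adjusted p = 1.2e-05). *Cdkn1a*, p21, was at means of 361 ± 58.8, 430.4 ± 176, 744 ± 267 and 1089 ± 462 CPM, a log2 change of 2.04 (SE 0.279, edgeR adjusted p = 4.68e-05). *Cdkn2a* and *Cdkn2c* changed by 2.21 (SE 0.507, edgeR adjusted p = 0.00282) and 1.62 (SE 0.396, edgeR adjusted p = 0.00438). Without TMM, 5 of the 7 were higher at T9 against T0. Of 10 p53 target genes, among them *Cdkn1a*, 8 were higher at T9 against T0, of which *Btg2*, *Ccng1* and *Cdkn1a* were also called without TMM. *Btg2*, an antiproliferative gene, had a log2 change of 2.2 (SE 0.236, edgeR adjusted p = 5.35e-06), and *Ccng1* and *Phlda3* of 1.03 (SE 0.239, edgeR adjusted p = 0.00317) and 0.98 (SE 0.272, edgeR adjusted p = 0.0095).

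Of 18 E2F, pocket protein and MuvB genes, 10 were lower and 1 higher at T9 against T0, where 21.6% of all genes were lower and 23.6% higher. *Foxm1*, the forkhead factor of the mitotic genes, changed by -2.16 (SE 0.332, edgeR adjusted p = 0.000131) and *Mybl2*, B-Myb, by -1.59 (SE 0.516, edgeR adjusted p = 0.0219). *E2f7*, the atypical partner of *E2f8*, changed by -1.69 (SE 0.29, edgeR adjusted p = 0.000327), while *Rbl2*, the pocket protein p130 of quiescent cells, was higher by 1.51 (SE 0.498, edgeR adjusted p = 0.0234) and was not called without TMM. Of 41 further DNA replication genes tested, 23 were lower and 1 higher at T3 against T0, 2 lower at T6 against T3, and 34 lower and 0 higher at T9 against T0. The largest were *Mcm10* (-2.99), *Uhrf1* (-2.85), *Chaf1b* (-2.29) and *Orc1* (-2.26), as log2 changes. Of 56 further mitosis genes, 8 were lower and 2 higher at T3 against T0, 32 lower and 0 higher at T6 against T3, and 47 lower and 1 higher at T9 against T0. Beside both lists, 16.2% of all genes were lower and 17% higher at T3 against T0, and 1.63% lower and 2.61% higher at T6 against T3. The largest changes of the mitosis list were in *Ncapd2* (-2.33), *Cdca5* (-2.29), *Cenpn* (-2.19) and *Espl1* (-2.11). The medians of these further lists were -0.77 and -0.14 at T3 against T0, and -0.32 and -1.06 at T6 against T3, for replication and mitosis. They were -1.41 and -1.31 at T9 against T0, beside -0.02 over all genes.

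In Achilles tendon, at 11188270 to 12398560 reads a sample, no member passed the test between Scx_KO and Scx_Wt. edgeR called 0 of 51 higher and 0 lower, where 1.77% of all genes were higher and 2.07% lower, and DESeq2 also called 0. At an unadjusted p under 0.05, edgeR put 10 members higher, where 8.4% of all genes were higher at that level, and 0 lower, where 8.79% of all genes were. In CPM, both Scx_KO samples lay above both Scx_Wt samples for 24 of 51 members, against 21.2% of all genes. The reverse held for 27.1% of all genes and for 1 of 51 members, *Ccnd2*, at 188 and 169.8 CPM in Scx_Wt and 136 and 151 CPM in Scx_KO (log2 fold change -0.27, SE 0.152, edgeR adjusted p = 0.411). The median log2 value over the members was 0.33, beside -0.004 over all genes, and 45 of 51 lay above 0 (42 without TMM). *Scx* itself, the targeted gene, was at 103 and 81.3 CPM in Scx_Wt and 23.1 and 25.1 CPM in Scx_KO (log2 fold change -1.88, SE 0.171, edgeR adjusted p = 0.000429). In bulk tissue, fewer cells of a type and less RNA per cell cannot be told apart.

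The 3 members named here were chosen after their values were seen, because another setting called them. *Mcm5* was at 12.3 and 12.2 CPM in Scx_Wt and 26.8 and 18.7 CPM in Scx_KO. Both Scx_KO samples were higher than both Scx_Wt samples, at log2 fold change 0.93, SE 0.241, edgeR adjusted p = 0.0702, and over 10 settings the adjusted p ran from 0.00843 to 0.270. *Mki67* was at 43.8 and 41.6 CPM in Scx_Wt and 58.2 and 65.2 CPM in Scx_KO. Again the genotypes did not overlap, at log2 fold change 0.58, SE 0.162, edgeR adjusted p = 0.0934, and the adjusted p over the settings ran from 0.0370 to 0.348. *Ube2c* was at 9.74 and 13.2 CPM in Scx_Wt and 24.1 and 17.8 CPM in Scx_KO, at log2 fold change 0.90, SE 0.268, edgeR adjusted p = 0.111, with a range of adjusted p from 0.0168 to 0.499. *Ube2c* shares 592 exon bases with *Tnnc2*, the troponin C of fast muscle, on the opposite strand, and the strand setting of the counts is not given in the sources used here. *Tnnc2* was at 1.52 and 3.18 CPM in Scx_Wt and 5.81 and 4.92 CPM in Scx_KO. These counts cannot show whether *Tnnc2* reads of the shared bases were counted to *Ube2c*, and this was not tested. Without the filter on low counts edgeR called all 3 higher, and without Scx_KO sample 2 it called *Mcm5* alone.

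The summed levels of several cell type markers differed between the genotypes, and the sums were not tested. One by one, edgeR called 0 of 7 muscle fibre and 0 of 7 leukocyte markers, and 2 of 4 muscle precursor markers higher. Of the 10 tenocyte markers, *Scx* among them, 6 were lower and 1 higher. Of the 7 epithelial markers 3 were tested, and 2 of these were higher. Lower markers were 5 of 6 chondrocyte, 2 of 7 endothelial and 1 of 4 adipocyte, where 2.07% of all genes were lower and 1.77% higher. The summed epithelial markers were at 7.51 to 9.47 CPM in Scx_Wt, with *Epcam*, *Krt14* and *Krt5* at 0, and at 19.9 to 29.4 CPM in Scx_KO. The summed muscle fibre markers, 7 of 7 above 0, were at 31482 to 58174 CPM in Scx_Wt and 74746 to 78401 CPM in Scx_KO, and the 4 muscle precursor markers at 46.6 to 62.4 and 136 to 148 CPM. The 10 tenocyte markers were at 157574 to 174092 CPM in Scx_Wt and 88086 to 101641 CPM in Scx_KO, and the 6 chondrocyte markers, *Ucma* at 0 in Scx_KO, at 2383 to 2581 and 105.0 to 126 CPM. The 7 endothelial markers were at 805 to 823 CPM in Scx_Wt and 509.7 to 598 CPM in Scx_KO, the 4 adipocyte markers at 206 to 599 and 46.5 to 139 CPM, while the 7 leukocyte markers overlapped, at 163 to 258 and 199 to 245 CPM. The Scx_KO samples stood far apart in the 4 Schwann cell markers, at 5712 CPM in sample 1 and 43.0 CPM in sample 2, against 650.1 and 641 CPM in Scx_Wt. No member was called with all samples, and leaving out Scx_KO sample 1 leaves 1 sample in its group, so a count of calls cannot show the influence of that sample. The part of these cells in the members' values was not tested.

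**Figure D5:**
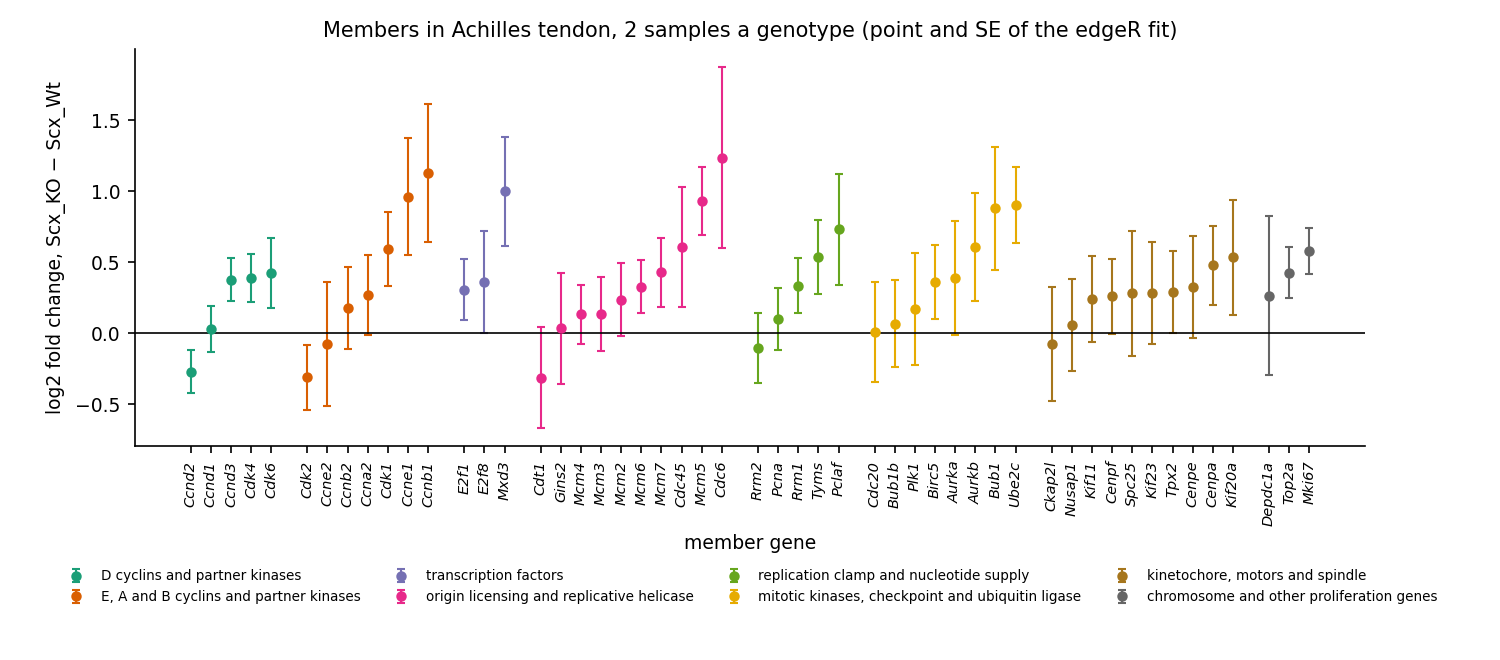
Log2 fold change of each of the 51 members in Achilles tendon, Scx_KO minus Scx_Wt (2 samples each), as a point with an SE derived from the edgeR F statistic, grouped by role on the horizontal axis. The points lie above 0 for 45 of 51 members, and none passed an adjusted p of 0.05.

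Per kilobase of exon, the members at the highest level in Scx_Wt tendon were *Cdk4* at 24.2 CPM per kb, *Ccnd2* at 19.0, *Pcna* at 8.25, *Ccnd3* at 7.99 and *Ccnd1* at 7.83. The D cyclins make up 3 of these 5. The summed level of the 15 replication members was 210.4 and 229.6 CPM in Scx_Wt and 294 and 237 CPM in Scx_KO, and that of the 25 mitotic members 251 and 284 CPM in Scx_Wt and 355 and 332 CPM in Scx_KO. Neither sum overlapped between genotypes, though the nearest replication sums were 229.6 CPM in Scx_Wt and 237 CPM in Scx_KO. With 2 samples a genotype, both Scx_KO samples lay above both Scx_Wt samples for 21.2% of all genes, and the sums were not tested. Among the CDK inhibitors, 5 were tested in tendon and 2 were higher in Scx_KO, where 1.77% of all genes were higher. *Cdkn1a* was at 70.2 and 73.8 CPM in Scx_Wt and 258 and 248 CPM in Scx_KO, a log2 change of 1.86 (SE 0.154, edgeR adjusted p = 0.000262). *Cdkn1c*, p57, was at 198 and 209 CPM in Scx_Wt and 440.2 and 414 CPM in Scx_KO, a log2 change of 1.11 (SE 0.167, edgeR adjusted p = 0.00626). Both rose with no overlap between genotypes, and *Phlda3*, a further p53 target, changed by 1.13 (SE 0.148, edgeR adjusted p = 0.00315). Of the further replication and mitosis genes 0 of 40 and 0 of 56 passed the test (1 and 5 at an unadjusted p under 0.05 by edgeR), and of the 18 E2F, pocket protein and MuvB genes 0 did (2 at that level). The unadjusted counts take both directions together, where 8.4% of all genes were higher and 8.79% lower at that level. DESeq2 called 0 and 0 of the first lists and 1 of the last, *E2f2*.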

How the data were processed

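CEL-Seq2 single-cell libraries (12 plates) and bulk RNA-seq of Achilles tendon (4 samples) were analysed from count tables. The authors deposited UMI counts per well and gene and read counts per gene, aligned to GRCm38. Per the submitters' processing notes, HISAT2 2.2.1, UMI-tools 1.0.1 and featureCounts were used for the cells, and HISAT2 2.0.4 with featureCounts 1.5.0 for the tendon. The annotation release and the strand setting of the counting are not given in the sources used here, and 20 of 51 members share exon bases with another gene, 8 of them over 500 bases. Of 29632 entries in the cell table, 3 without a gene identifier (0.0642% of UMIs) were left out.

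Wells with at least 200 genes were kept and their UMIs were summed by plate, so that a plate is 1 replicate. No doublet caller was run, since 1 cell was sorted to each well. Counts were fitted with edgeR 4.0.16 in R 4.3.3 (filterByExpr, TMM, glmQLFit, glmQLFTest), with all 12 plates in 1 fit and the 4 tendon samples in another. Adjusted p-values are Benjamini-Hochberg over all genes tested, and the threshold was 0.05. Each SE of an edgeR log2 change was derived as the absolute log2 change divided by the square root of the F statistic. CPM are counts per 1000000 of the total of a sample. Members at a few CPM rest on few UMIs a plate, so counting error is large for them. The fits were tested on simulated data made from the same means and library sizes. DESeq2 1.42.0, other scalings, no filter, thinned cells, left-out samples, the plate class and a replicate block were tried as alternatives. Python 3.11.15, numpy 2.4.6, scipy 1.17.1, pandas 2.3.3 and matplotlib 3.10.9 were used for the rest.

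Values in every sample are given for up to 3 members a role, those with the largest absolute log2 change at T9 against T0 among called members, together with members that moved against most and, in tendon, members called in another setting. Of each further list, up to 4 called genes with the largest change are named, in cells with their means or log2 changes. Replicate numbers were not taken to pair the samples. The members, the gene lists and the marker lists were chosen with earlier results of these data known.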

Additional observations from a re-analysis of the deposited data

How the results depend on the processing

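The numbers of called members were 24, 26, 2 and 43 at T3 against T0, T6 against T3, T9 against T6 and T9 against T0, and 0 in tendon. At T3 against T0 other settings gave 21 to 27 and left-out plates 16 to 22, and at T9 against T0 40 to 48 and 39 to 42. At T6 against T3 leaving out a plate gave 17 to 25, and library totals without TMM, a setting chosen after seeing the data, gave 17. At T9 against T6 the count was 4 with DESeq2, 1 with thinned cells, 8 with the plate class as a covariate, 0 without TMM, 4 without pluripotent-like cells, and 0 to 4 with a plate left out. In tendon it was 3 without the filter on low counts and 0 to 1 with a sample left out. With the replicate block it was 23, 23, 1 and 43 in cells and 2 (*Mcm5* and *Mki67*) in tendon. The numbers were not taken to pair the samples: same-numbered deviations correlated at -0.56 to -0.17 between T3 and T6, -0.27 to 0.52 between T6 and T9 (0.42 and 0.52 for numbers 2 and 3), 0.02 to 0.03 between T0 and T3, -0.06 to 0.09 between T0 and T9, and 0.07 in tendon. Same-numbered plates were of unlike class in every pair of T3 and T6 and in number 1 of T6 and T9. In numbers 2 and 3 of T6 and T9 they were of like class. The cause of these differences was not tested. The share of cells with mitotic members at T0, T3, T6 and T9 was 88.8%, 55.9%, 46.1% and 26.0% with all UMIs, 94.4%, 83.2%, 64.9% and 54.5% with at least 1 member, and 56.3%, 30.2%, 13.1% and 9.00% with at least 5. Without pluripotent-like cells it was 69.7% at T0 and 11.8% at T9. Over 1425 refits of the 95 calls of single members, 1296 stayed past the threshold, 129 did not and 0 turned direction.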
